A study of Rattus norvegicus with 12 samples.

Results

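The genes of the matricellular proteins were followed in the rat cervix through 9 named genes: Postn, Tnc, Thbs1, Thbs2, Sparc, Spp1, Fn1, Ctgf and Cyr61. They were found by their gene name on the array, which carried 9 probes for 8 of the 9 genes, out of 26612 gene names in all. Cyr61 was not analysed here. Fn1 had 2 probes and each of the others had 1. The study used Sprague Dawley rats and compared pregnant animals at day 21 after breeding (D21), the day before birth was expected, with non-pregnant rats in proestrus (NP), and whole cervix with cervix from which macrophages (Mφ) had been depleted. The 12 rats, each on an array of its own, formed 4 groups of 3: D21 whole cervix (rats 5, 6 and 7), NP whole cervix (rats 8, 9 and 10), D21 Mφ-depleted cervix (rats 1, 2 and 4) and NP Mφ-depleted cervix (rats 5, 6 and 7, which are other animals than the D21 rats with those numbers). All 12 rats were perfused through the heart with saline, and in all of them the cervix was minced and its cells dispersed with collagenase before freezing. Only the depleted groups went through the further steps with the ED1 antibody, which binds the Mφ antigen encoded by Cd68, and magnetic beads, so depletion and handling cannot be told apart, and whole and depleted cervix came from different animals. A dispersed cervix holds many cell types, and fewer cells of a type and less RNA per cell cannot be told apart in such samples.

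Matricellular proteins are secreted into the extracellular matrix, where they mainly regulate how cells attach to, sense and remodel the matrix rather than bearing load themselves. Most bind integrins, heparan sulfate proteoglycans or collagens, and several are made in large amounts during wound repair, development and tissue remodelling. The cervix is largely collagen-rich connective tissue with smooth muscle and epithelium, and its matrix is remodelled before birth. Fibronectin, encoded by Fn1, is also a structural glycoprotein of the matrix and is counted here with the group because the other members bind to or act beside it.

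The values rest on 60-base probes, and those whose signals carry the differences described below are shown in full, 5′ to 3′, because each one is all that is seen of its gene.
Postn, chr2:143560792-143561828 of rn4, plus strand: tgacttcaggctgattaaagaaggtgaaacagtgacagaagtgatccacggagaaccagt
Sparc, chr10:40811473-40811532 of rn4, minus strand: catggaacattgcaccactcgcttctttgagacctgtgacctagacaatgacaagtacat
Thbs2, chr1:53589151-53589210 of rn4, minus strand: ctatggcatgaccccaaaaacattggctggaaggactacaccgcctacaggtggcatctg
Spp1, chr14:6422382-6422441 of rn4, minus strand: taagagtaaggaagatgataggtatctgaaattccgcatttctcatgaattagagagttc
Tnc, no position given: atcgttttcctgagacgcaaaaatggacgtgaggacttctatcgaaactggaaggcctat
Thbs1, no position given: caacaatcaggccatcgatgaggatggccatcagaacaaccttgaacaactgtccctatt
Positions come from the annotation in the array files, which spreads the Postn probe over 1037 bases of the chromosome, more than the probe is long. The longest run of bases shared by any pair of member probes was 8. The exon or untranslated region under each probe was not looked up, since no annotation of rn4 was used here. The 2 Fn1 probes lie on chromosome 9, at chr9:70702316-70702375 and chr9:70745666-70745725, with 43290 bases between them, and the gene is on the minus strand, so the first is the one nearer the 3′ end. RNA was amplified from its poly(A) end.

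A level is the log2 of a probe's intensity over the 75th percentile of all probes on that array, so that 0 is the 75th percentile. Levels of one probe can be compared between rats, and levels of different probes cannot. The 75th percentile itself ran from 290 to 1171 intensity units, and 44.9% to 61.7% of probes were well above background on an array. Cd68, the ED1 antigen, did not separate whole from depleted cervix, with a log2 difference of -0.15 (adjusted p = 0.882) in D21 rats and 0.54 (adjusted p = 0.530) in NP rats, while Adgre1, a marker of mature Mφ, exceeded its depleted level at least 36.6-fold in whole cervix of D21 and at least 39.6-fold in that of NP rats, being not well above background on any depleted array. Summed over 15 Mφ markers, the level was 80.9 to 127 times the 75th percentile in whole cervix and 5.50 to 15.9 times in depleted cervix. This sum is linear and in depleted cervix leans on its brightest gene, Cd14, which changed little. Mean Cd14 levels were 3.16 in whole and 2.90 in depleted cervix of D21 rats, and 2.50 and 2.73 in NP rats. Other cell types moved as well. The summed level of 10 fibroblast markers was 460.5 to 716 in whole cervix, 333 to 498 in D21 depleted cervix and 20.02 to 65.0 in NP depleted cervix. That of 10 smooth muscle markers was 277 to 642, 42.7 to 153 and 20.3 to 27.6 in the same order. The 10 epithelial markers summed to 135 to 403 in whole and 519 to 987 in depleted cervix, and 22 immediate-early genes, which many cells switch on when handled, to 56.1 to 105 and 153 to 466. One array correlated better with another group than with its own. Over 14487 genes D21 depleted rat 4 had a mean correlation of 0.917 with its own group and 0.927 with the NP depleted rats, so results that rest on it are also given without it. NP whole rat 9 correlated about equally with its own group (0.935) and with the D21 whole rats (0.933). The part of the shifts in marker genes in the members' values was not tested.

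**Figure D1:**
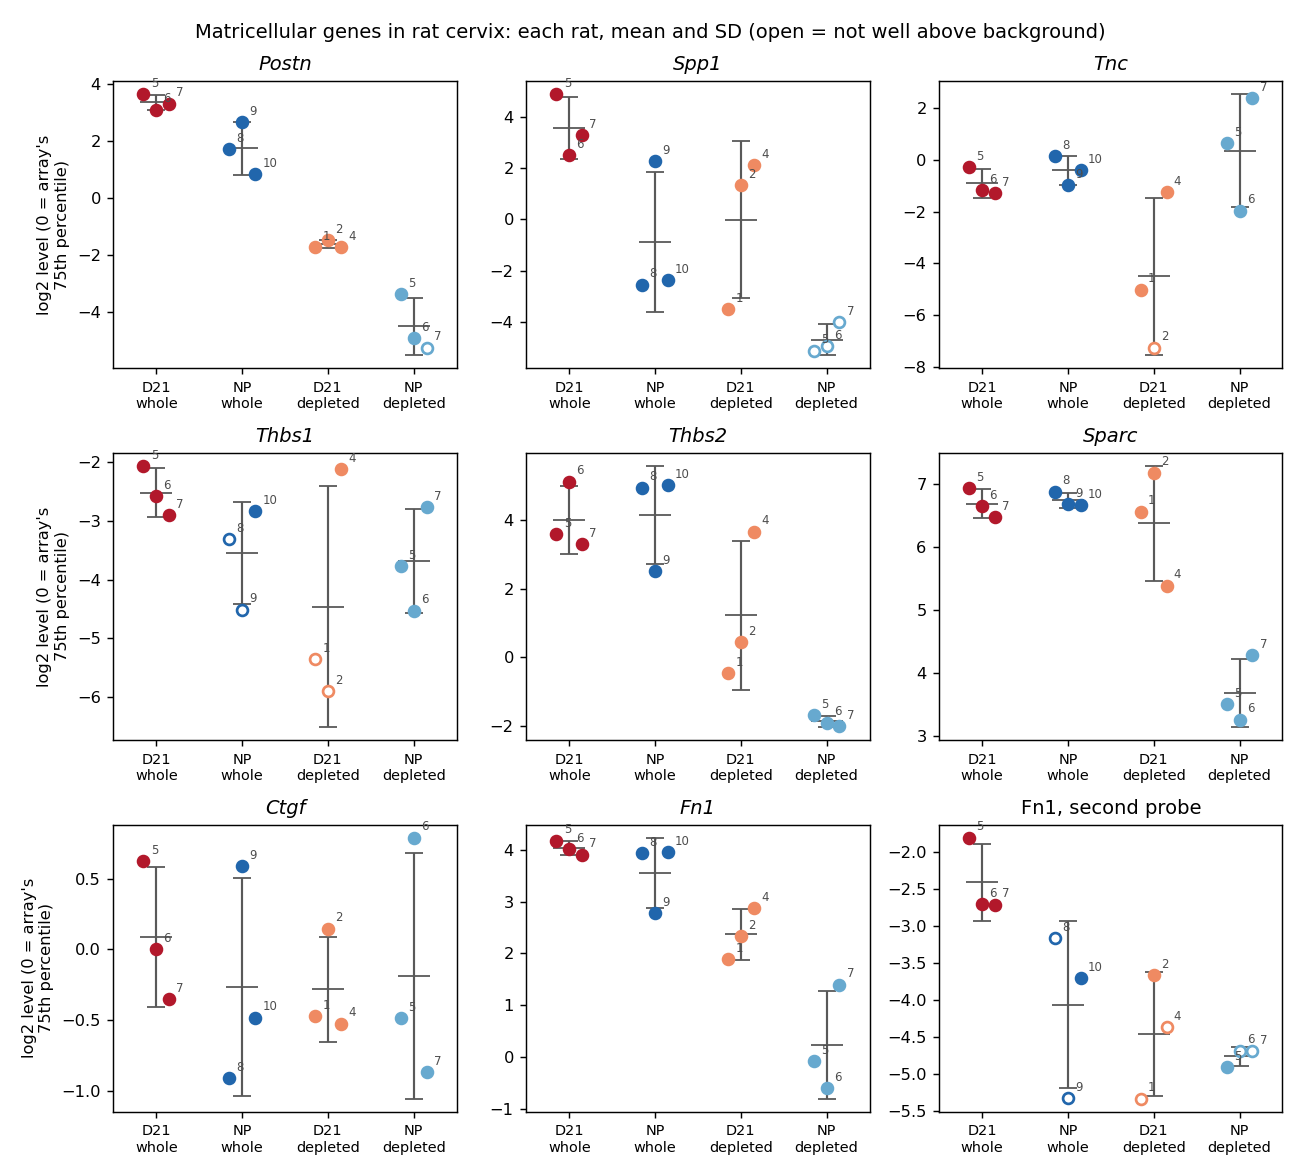
Level of each probe in each rat (vertical axis, log2 intensity over the array's 75th percentile) in the 4 groups (horizontal axis), with rat numbers, the group mean and the SD of 3 rats; the vertical scale differs between panels, and open circles are arrays on which the probe was not well above background. Postn falls in 4 separate steps, Sparc and Fn1 are low in NP depleted cervix, rat 4 lies apart from rats 1 and 2 for Thbs2, Thbs1 and Tnc, and Ctgf overlaps in all groups.

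The first comparison asked how the remodelled cervix before birth differs from the non-pregnant one, in whole cervix. None of the 8 members was called (adjusted p below 0.05 over all 14056 genes tested, limma), while 3.94% of all genes tested were called higher and 1.94% lower in D21 cervix. An unadjusted p below 0.05 was reached by 3187 of the 14056 genes tested, in either direction. Among the members, Postn and Spp1 reached it, each higher in D21 rats. Both were higher in every D21 rat than in every NP rat, as was the Fn1 probe farther from the 3′ end. The share of all genes without overlap was not counted.

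Postn encodes periostin, which helps to cross-link collagen fibrils. Its level in D21 whole cervix was 3.64, 3.097 and 3.31 in rats 5, 6 and 7. In NP whole cervix it was 1.71, 2.66 and 0.84 in rats 8, 9 and 10. The D21 rats lay close together and the NP rats did not, and the groups were 0.43 apart at their nearest values. The mean difference was 1.61 ± 0.51 (log2, SE), a 3.06-fold difference that did not pass the adjusted threshold (adjusted p = 0.0871). Without NP rat 9, the highest of its group, it was 2.08 with an adjusted p of 0.0360, and within slide 4, which held the 3 D21 rats and NP rat 10, it was 2.51.

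Spp1 encodes osteopontin, a secreted phosphoprotein that binds integrins and CD44. The level was 4.87, 2.50 and 3.28 in D21 rats 5, 6 and 7, against -2.55, 2.26 and -2.36 in NP rats 8, 9 and 10. NP rat 9 thus lay near the D21 rats, and the other 2 NP rats were far below them. The difference was 4.43 ± 1.49 (adjusted p = 0.104), with an interval of 1.17 to 7.69, and it was 6.00 (adjusted p = 0.0282) without NP rat 9. The difference was 4.43 with an adjusted p of 0.0416 once scan day entered the fit, although all 6 of these arrays were scanned on the same day, so that the change lay in the error estimate. The probe was printed as 10 spots per array, whose coefficient of variation was 5.36% to 14.6% in whole cervix, which covers only the error of reading 1 array.

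The intervals of the other 6 members, each read by the probe used in the fit, all included 0. Sparc, a collagen-binding glycoprotein, was at 6.93, 6.65 and 6.48 in D21 rats and at 6.88, 6.68 and 6.66 in NP rats. The 2 groups lay within each other, with a difference of -0.05 and an interval of -0.96 to 0.85. Fn1, read by its 3′ probe, was at 4.17, 4.00 and 3.91 against 3.93, 2.77 and 3.96, with a difference of 0.47 (interval -0.61 to 1.56). Its dimmer upstream probe gave 1.65 (adjusted p = 0.0991), with 0.45 between the nearest rats of the groups. That probe was well above background in 3 of 3 D21 and 1 of 3 NP rats. Thbs2, which encodes a thrombospondin that restrains vessel growth and collagen fibril size, was at 3.60, 5.13 and 3.30 against 4.96, 2.51 and 5.02, and the groups overlapped throughout. Tnc, which encodes the anti-adhesive tenascin-C, gave -0.51 (interval -3.42 to 2.40), and its levels ran from -1.28 to 0.15 over the 6 rats. Thbs1, which encodes the thrombospondin known for activating latent TGF-beta, gave 1.04 (interval -0.84 to 2.91), with the probe well above background in 3 of 3 D21 and 1 of 3 NP rats. Ctgf, a CCN-family gene that responds to TGF-beta and to mechanical load, gave 0.36 (interval -0.71 to 1.42).

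**Figure D2:**
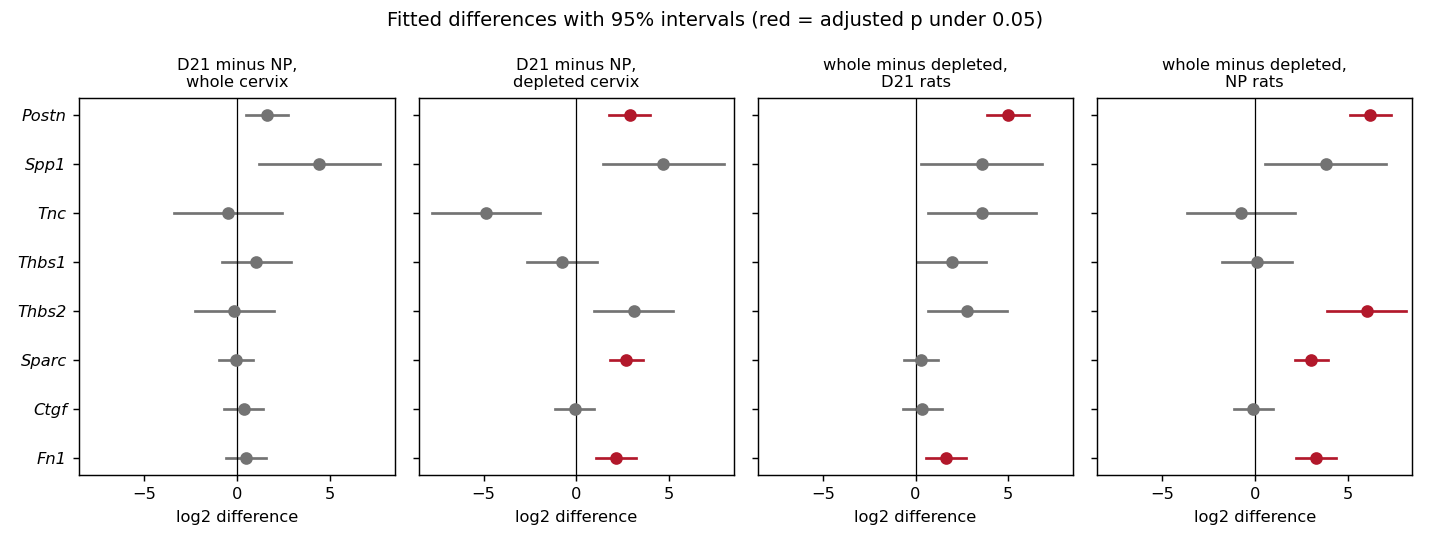
Fitted log2 difference (horizontal axis) of each member (vertical axis) with its 95% interval in the 4 comparisons of 3 rats with 3; red marks an adjusted p below 0.05. Nothing is red in whole cervix, 3 members are in depleted cervix, and Postn and Fn1 are red in both comparisons of whole with depleted cervix.

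The same question was asked of depleted cervix. Postn, Sparc and Fn1 were higher in D21 than in NP rats, by 7.34-fold, 6.47-fold and 4.37-fold. They were 3 of the 8 members, beside 3.62% of all 13406 genes tested called higher and 0.97% called lower. No member was called lower, and Tnc differed toward lower values in D21 rats without passing.

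Postn was at -1.71, -1.46 and -1.71 in D21 rats 1, 2 and 4 and at -3.36, -4.90 and -5.24 in NP rats 5, 6 and 7, the last not well above background. The difference was 2.87 ± 0.51 (adjusted p = 0.00851). It was 2.67 within slide 1 and 3.53 within slide 3, each of which held rats of both groups. With normexp background correction it was 1.67 and no longer called (adjusted p = 0.0799), and the call was kept when any 1 rat was left out.

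Sparc was at 6.56, 7.18 and 5.39 in D21 rats and at 3.501, 3.26 and 4.28 in NP rats. Every D21 rat was above every NP rat, and the nearest pair, D21 rat 4 and NP rat 7, were on the same slide. The difference was 2.69 ± 0.41 (adjusted p = 0.00376), and it was 3.80 within slide 1 and 1.10 within slide 3.

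Fn1 was at 1.89, 2.34 and 2.88 against -0.08, -0.60 and 1.40, again without overlap. The difference was 2.13 ± 0.49 (adjusted p = 0.0326), 2.68 within slide 1 and 1.47 within slide 3. The call was lost without D21 rat 1 (2.37, adjusted p = 0.0592), D21 rat 2 (2.14, 0.102), NP rat 5 (1.97, 0.133) or NP rat 6 (1.71, 0.0996). The upstream Fn1 probe was well above background in 1 of 3 rats of either group and gave means of -4.45 and -4.76.

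Thbs2 followed the same direction with a wide spread. It was at -0.45, 0.46 and 3.67 in D21 rats 1, 2 and 4, and at -1.68, -1.90 and -2.001 in NP rats, which lay close together. The difference of 3.09 ± 0.97 did not pass (adjusted p = 0.103), and it was 2.25 within slide 1 and 5.67 within slide 3, which held rat 4. Spp1 was at -3.49, 1.34 and 2.11 in D21 rats, while in NP rats it was not well above background on any of the 3 arrays. Its mean was therefore at least 20.001-fold higher in D21 rats, from measured means of -0.01 and -4.70, and the fitted difference of 4.68 did not pass (adjusted p = 0.107). The bound was 66.9-fold without D21 rat 1, 12.5-fold without rat 2 and 9.57-fold without rat 4. With slide in the fit it was 6.27 (adjusted p = 0.0394), and without D21 rat 1 it was 6.42 (adjusted p = 0.0264).

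Tnc went the other way. It was at -5.02, -7.26 and -1.24 in D21 rats 1, 2 and 4, with rat 2 not well above background, and at 0.65, -1.96 and 2.39 in NP rats 5, 6 and 7. D21 rat 4 lay above NP rat 6, so the groups overlapped. The difference was -4.87 ± 1.32 (adjusted p = 0.0643). The same direction held within each slide, at -6.61 in slide 1 and -3.63 in slide 3, and the difference was called with slide in the fit (-5.34, adjusted p = 0.0216), without D21 rat 4 (-6.50, adjusted p = 0.00398) and without NP rat 6 (-6.03, adjusted p = 0.0396). It was called in 3 of 14 other settings, which gave -5.86 to -2.30, and in 2 of the 6 fits without 1 rat. D21 rats 1 and 2 read only 36.1 and 4.58 intensity units, which limits the size of the Tnc difference. Thbs1 was at -5.36 and -5.90 in D21 rats 1 and 2, both not well above background, at -2.11 in rat 4, and at -3.76, -4.53 and -2.76 in NP rats. Its difference of -0.78 was not called (adjusted p = 0.624). Without rat 4 it was -1.95 with an adjusted p of 0.0410, in a fit that called 10.5% of all genes higher and 9.32% lower. Ctgf differed by -0.10 (interval -1.15 to 0.96).

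Without D21 rat 4 the differences of the called members were 2.92 for Postn, 3.19 for Sparc and 1.87 for Fn1, and all 3 remained called (adjusted p = 0.00944, 0.000608 and 0.0393). Those of Thbs2 and Spp1 were 1.87 and 3.62 (adjusted p = 0.109 and 0.138). In each depleted group the rat on slide 3, rat 4 of the D21 and rat 7 of the NP rats, had the highest Tnc, Thbs1 and Fn1 level of its group. This was noticed after the values were seen. Rat 4 had summed fibroblast, Mφ and epithelial markers within the range of rats 1 and 2 (337, 14.4 and 673), and the lowest sums of smooth muscle markers (42.7) and immediate-early genes (249.2) of its group. The mean log2 level of 14 Mφ markers, in contrast to their sum, was lower in rat 4 (-2.92) than in rats 1 and 2 (-2.42 and -2.32).

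**Figure D3:**
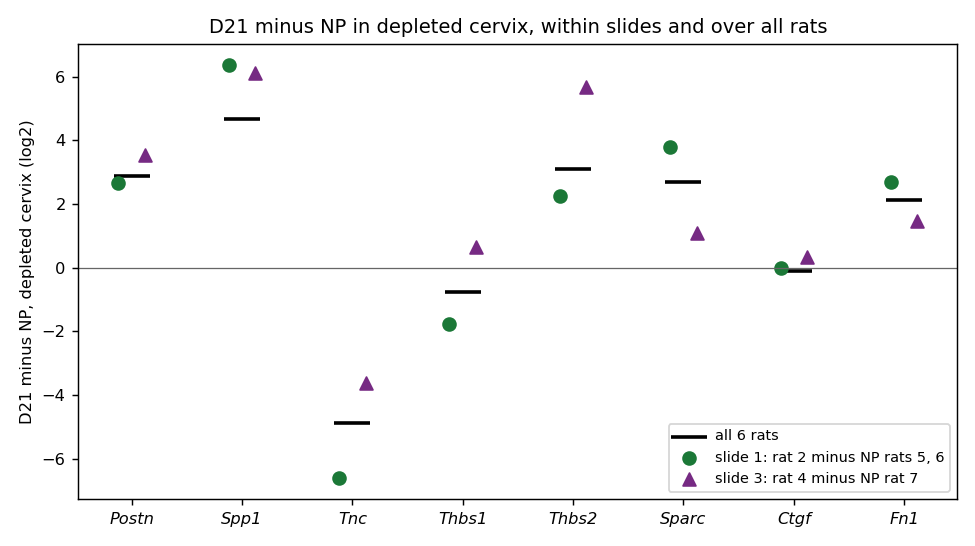
Difference between D21 and NP rats in depleted cervix (vertical axis, log2) for each member (horizontal axis), over all 6 rats (bars), within slide 1 (circles, rat 2 minus the mean of NP rats 5 and 6) and within slide 3 (triangles, rat 4 minus NP rat 7). Tnc is below 0 and Postn, Spp1, Thbs2, Sparc and Fn1 above 0 on both slides, while Thbs1 has opposite signs.

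Whole and depleted cervix were then compared in D21 rats, to find transcripts that went with Mφ or with the other cells lost. Postn and Fn1 were lower after depletion, by 31.5-fold and 3.16-fold. These were 2 of the 8 members, while 11.9% of the 14256 genes tested were called higher in whole cervix and 10.5% lower. Sparc and Ctgf differed little over all rats of the 2 groups. Postn went from a mean of 3.35 ± 0.28 (SD, n = 3) in whole to -1.63 ± 0.14 (n = 3) in depleted cervix, a difference of 4.98 ± 0.51 (SE, adjusted p = 0.000160) with 4.56 between the nearest rats of the 2 groups. It was 6.66 with slide in the fit, and 5.06 on scan day 3, which held the 3 whole rats and rat 4. The D21 whole and D21 depleted rats shared no slide. The fit with slide links them only through NP whole rat 10, on slide 4 with the D21 whole rats, so its values are not comparisons within a slide. Fn1 went from 4.03 ± 0.14 to 2.37 ± 0.49, a difference of 1.66 ± 0.49 (adjusted p = 0.0355). It was 0.20 with slide (adjusted p = 0.952) and 0.81 with scan day in the fit (adjusted p = 0.310). It was lost without D21 whole rat 5 (adjusted p = 0.101), 6 (0.0916) or 7 (0.0894) and without D21 depleted rat 1 (0.131) or 2 (0.0959). The upstream Fn1 probe gave 2.04 ± 0.54 (adjusted p = 0.0239).

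Sparc was as high in D21 depleted as in D21 whole cervix within the error, at 6.38 ± 0.91 against 6.69 ± 0.23 (SD, n = 3 each), with a difference of 0.31 and an interval of -0.60 to 1.22. Under quantile normalization its difference was 1.04 and was called (adjusted p = 0.0282). On scan day 3, which held the 3 whole rats and rat 4, the Sparc difference was 1.30. Thbs2, Tnc, Spp1 and Thbs1 were lower after depletion by 2.78, 3.60, 3.56 and 1.94 on the log2 scale, with adjusted p of 0.0594, 0.0707, 0.101 and 0.117. Rat 4 was the highest depleted rat for each of the 4 and rats 1 and 2 were lower. Without rat 4 the differences were 4.01, 5.23, 4.63 and 3.12, all 4 were called (adjusted p = 0.00301, 0.00446, 0.0435 and 0.00271), and 6 of the 8 members were called in all. In that fit 18.4% of all genes were called higher in whole cervix and 21.8% lower, so calls were more frequent over all genes too. Rats 1 and 2 shared no scan day with the whole rats, so without rat 4 depletion and scan day cannot be told apart. With rat 4 alone against the 3 whole rats, all scanned on the same day, the differences were 0.34 for Thbs2, 0.33 for Tnc, 1.44 for Spp1 and -0.40 for Thbs1.

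The same comparison was made in NP rats. Postn, Thbs2, Fn1 and Sparc were lower in depleted than in whole cervix, by 75.5-fold, 65.1-fold, 9.94-fold and 8.32-fold, which made 4 of the 8 members beside 17% of the 13409 genes tested called higher in whole cervix and 15.8% called lower. None of these 4 lost its call when any 1 rat was left out. Postn gave 6.24 ± 0.51 (adjusted p = 8.02e-06), 7.43 within slide 3 and 7.18 with slide in the fit. Thbs2 gave 6.02 ± 0.97 (adjusted p = 0.000751) and 5.74 within slide 3. Fn1 gave 3.31 ± 0.49 (adjusted p = 0.000436) and 1.95 within slide 3. Sparc gave 3.06 ± 0.41 (adjusted p = 0.000230) and 2.49 within slide 3. Spp1 was at least 10.96-fold above its depleted level, from measured means of -0.88 and -4.70, with all 3 whole arrays and none of the 3 depleted arrays well above background, and did not pass (adjusted p = 0.0700). This rests on NP whole rat 9, without which the bound is 3.69-fold and the fitted difference 2.24 (adjusted p = 0.244).

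Tnc and Thbs1 did not follow. Tnc was at 0.15, -0.96 and -0.38 in NP whole rats, inside the range of the NP depleted rats, with a difference of -0.76 and an interval of -3.67 to 2.15. With slide in the fit it was lower in whole than in depleted cervix, by -3.65 (adjusted p = 0.0428), and within slide 3 it was -2.80. Thbs1 gave 0.13 (interval -1.74 to 2.01). Ctgf gave -0.08 (interval -1.14 to 0.98), and over all 12 rats its level stayed between -0.91 and 0.79, and every group overlapped every other.

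**Figure D4:**
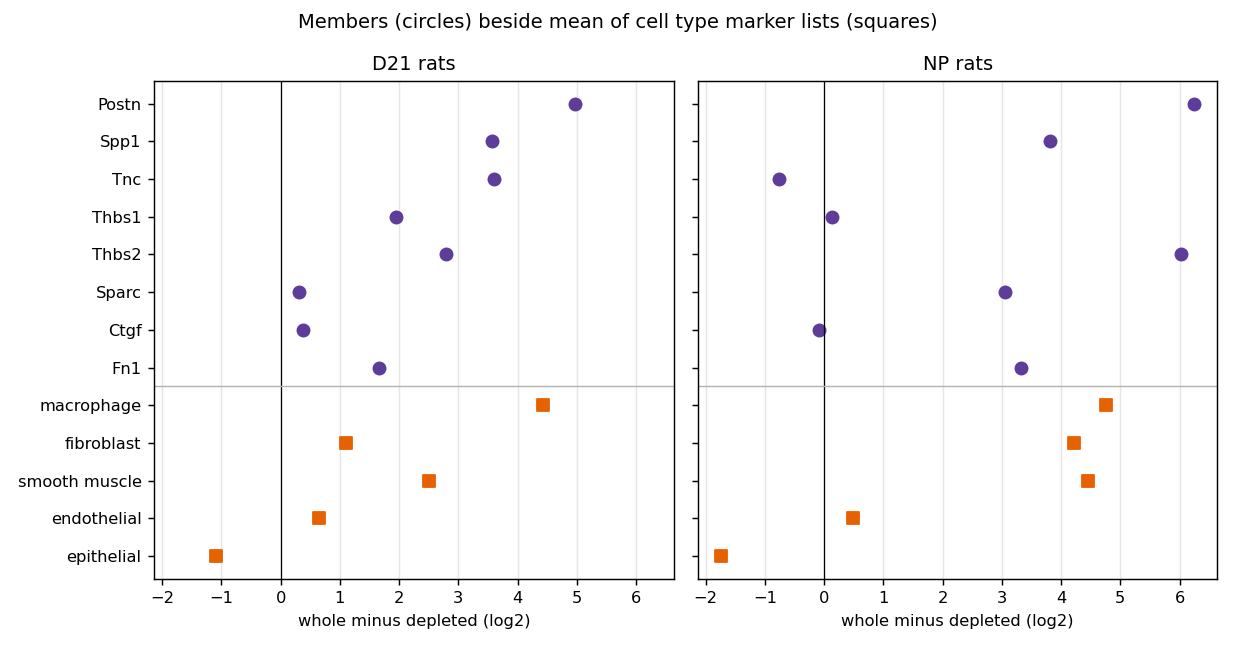
Whole minus depleted cervix (horizontal axis, log2) in D21 and in NP rats for each member (circles, fitted difference) and for the mean level of 14 Mφ, 10 fibroblast, 9 smooth muscle, 10 endothelial and 10 epithelial markers (squares). Fibroblast markers and Sparc both go from 1.11 or lower in D21 rats to above 3 in NP rats, while Postn and the Mφ markers, some of them at background in depleted cervix, are above 4 in both.

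The members are set here beside the marker lists. The mean of the Mφ markers was higher in whole cervix by 4.42 in D21 and 4.75 in NP rats, that of fibroblast markers by 1.11 and 4.21, and that of smooth muscle markers by 2.51 and 4.46. Of the 15 Mφ markers, 4 in D21 and 5 in NP rats were not well above background on any depleted array, so the fall of the Mφ mean is limited by background and is not ranked against the members. Postn, at 4.98 and 6.24, lay above the fibroblast and smooth muscle means in both states. Sparc, at 0.31 and 3.06, lay below both of them in both states. Fn1, at 1.66 and 3.31, lay above the fibroblast mean in D21 and below it in NP rats.

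The next comparison asked whether depletion had another effect in D21 than in NP rats, as the difference of the 2 differences. Sparc was the only member called, at -2.75 ± 0.59 (adjusted p = 0.0377), with 1.96% of the 14565 genes tested called in this direction and 0.439% in the other. The fall of Sparc with depletion was larger in NP rats, at 3.06 against 0.31. Its call was kept without D21 depleted rat 4 (-3.24) and without NP depleted rat 7 (-3.05) and lost without any 1 of the other 10 rats, at -2.35 to -2.87 and adjusted p from 0.0554 to 0.118. With slide in the fit, which links the D21 whole rats to the others only through NP whole rat 10, it was -2.62 (adjusted p = 0.248). The other differences were not called: -1.65 for Fn1 (adjusted p = 0.233), -1.26 for Postn (0.369), -3.24 for Thbs2 (0.235), 4.36 for Tnc (0.242), 1.81 for Thbs1 (0.441), -0.25 for Spp1 (0.962) and 0.45 for Ctgf (0.754). Without D21 depleted rat 4, Thbs1 (2.99, adjusted p = 0.0307) and Tnc (6.00, adjusted p = 0.0238) were called as well, beside 7.53% of all genes called higher and 8.09% lower in that fit. Without that rat the whole and depleted D21 rats shared no scan day, so depletion and scan day cannot be told apart there. The dimmer Fn1 probe gave 1.35 (adjusted p = 0.361), opposite in sign to the other. Of the 10 fibroblast markers, 8 were called in the same direction as Sparc.

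In the order of the 4 group means, Postn ran from D21 whole (3.35) through NP whole (1.74) and D21 depleted (-1.63) to NP depleted (-4.50), with no overlap between any neighbours. Spp1 ran from D21 whole (3.55) through D21 depleted (-0.01) and NP whole (-0.88) to NP depleted (-4.70), and its 2 middle groups overlapped. Sparc had 3 groups together (6.74 in NP whole, 6.69 in D21 whole and 6.38 in D21 depleted) and NP depleted cervix apart (3.68). Fn1 had both whole groups together (4.03 and 3.55), then D21 depleted (2.37), whose rat 4 lay above NP whole rat 9, and NP depleted (0.24) apart. Thbs2 had both whole groups together (4.16 in NP and 4.01 in D21), then D21 depleted (1.23), whose rat 4 reached into the whole groups, and NP depleted (-1.86). Tnc had NP depleted (0.36), NP whole (-0.40) and D21 whole (-0.91) overlapping, then D21 depleted (-4.51), whose rat 4 lay above D21 whole rat 7 and NP depleted rat 6. Thbs1 ran from D21 whole (-2.52) over NP whole (-3.55) and NP depleted (-3.68) to D21 depleted (-4.46), each overlapping its neighbour. Ctgf had no order.

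Other matricellular and related genes were followed through a list of 23, of which 22 had a probe. In whole cervix none of the 12 tested was called between D21 and NP rats, beside 3.94% of all genes called higher and 1.94% lower. Their median was 0.16, beside -0.08 over all genes. In depleted cervix 2 of 11 were higher in D21 rats and none was lower, beside 3.62% and 0.97% of all genes. They were Ccn5 (at least 2.88-fold, not well above background on any NP depleted array, adjusted p = 0.01003) and Smoc2 (2.44, adjusted p = 0.0380). Ccn5 encodes a CCN protein that lacks the C-terminal domain of its relatives, and Smoc2 a secreted protein with a SPARC-like calcium-binding region. Between whole and depleted cervix 3 of 12 were higher in whole cervix of D21 rats (Fstl1 at 2.62, Sparcl1 at 2.19 and Smoc1, at least 4.98-fold) and 8 of 12 in NP rats, among them Smoc2 (4.34), Fstl1 (3.37), Ccn5 (at least 3.67-fold) and Smoc1 (at least 2.79-fold), beside 11.9% and 17% of all genes. A bound is given where no array of the lower group read the gene well above background, so that it passed the filter through the other group alone. Fstl1 and Sparcl1 also belong to the SPARC family. None was lower. The medians were 0.51 and 1.80, beside -0.06 and -0.04 over all genes, and those of the 8 members 2.36 and 3.19. Smoc2 was the only one of the 12 called for the difference between D21 and NP rats, at -4.07 (adjusted p = 0.0310), in the same direction as Sparc. Of all genes, 1.96% were called in that direction.

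Of 26 receptor genes for matricellular proteins, 25 had a probe and 22 were tested in whole cervix. Between D21 and NP whole cervix Itga3, a laminin-binding integrin chain, was higher (2.21, adjusted p = 0.0326) and Ddr2, a receptor for fibrillar collagen, lower (-1.38, adjusted p = 0.0449), beside 3.94% and 1.94% of all genes. In depleted cervix Ddr2 was instead higher in D21 rats (2.07, adjusted p = 0.00705), as was Itga8 (1.51, adjusted p = 0.0187), a chain of an integrin that binds fibronectin, tenascin-C and osteopontin. None of 18 was lower, beside 3.62% of all genes called higher and 0.97% lower. In D21 rats 7 of the 22 stood above their depleted level in whole cervix and 4 below it, beside 11.9% and 10.5% of all genes. Among those above were the leukocyte integrin chains Itgam (2.93) and Itgb2 (at least 5.96-fold), Itgb3 (2.64) and Cd36 (2.06), a thrombospondin receptor. In NP rats 10 were higher and 7 lower, beside 17% and 15.8%, and among the higher were Ddr2 (3.30), Itgam (2.86), Itgb2 (at least 8.81-fold) and Itgb3 (at least 8.27-fold). Itgb2 in both states and Itgb3 in NP rats were not well above background on any depleted array. Itgb3 pairs with the integrin chain that serves as a receptor for periostin, osteopontin and fibronectin. Ddr2 was called for the difference between D21 and NP rats, at -3.45 (adjusted p = 0.00790), beside 1.96% of all genes called in that direction.

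Genes tied to TGF-beta, YAP and SRF, pathways known to drive Ctgf, Cyr61 and Thbs1, were followed through a list of 19, of which 18 had a probe and 15 were tested. Their summed level was 41.6 to 48.6 in D21 and 26.1 to 29.1 in NP whole cervix, and 47.2 to 49.7 in D21 and 30.4 to 37.0 in NP depleted cervix. The sum is linear and leans on its brightest gene, F3 (tissue factor). F3 had a mean level of 4.57 in D21 and 2.75 in NP whole cervix, and of 4.27 and 3.57 in depleted cervix. The sum is therefore no measure of the list as a whole. F3 was also the only gene called between D21 and NP whole cervix (1.81, adjusted p = 0.00950), beside 3.94% of all genes called higher and 1.94% lower. Lats2, a kinase that restrains YAP, was the only one in depleted cervix (1.19, adjusted p = 0.0163), beside 3.62% and 0.97%. Ajuba (-2.07) was lower in whole than in depleted cervix at D21, beside 10.5% of all genes called lower. Among NP animals Ajuba (-2.45), Amotl2 (-1.20) and Tgfb3 (-1.14) were lower, and 2 were higher, of which Lats2 (1.26) was the larger. Of all genes, 15.8% were called lower and 17% higher there. The medians of the list were 0.24, 0.45, -0.12 and -0.15 in the 4 comparisons.

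The genes most like each member over the 12 arrays were ranked among 13327 that were well above background on at least 9 arrays. They are given as a description, since all the points share the same 12 arrays and 4 groups. Sparc was closest to Mfap5, a microfibril protein (Pearson r = 0.996), then Cd248 (0.980) and Pcolce (0.978), the enhancer of procollagen C-proteinase. Postn was closest to Rspo1 (0.984), a secreted enhancer of Wnt signalling, and to Glb1l (0.969). Fn1 was closest to Cacna1i (0.974), Cacna1g (0.971), both calcium channel genes, and the chemokine gene Ccl11 (0.969). Thbs2 had Htra4 (0.973) and Fbn1 (0.972), the microfibril protein fibrillin-1, Tnc had Foxn2 (0.959) and Slc16a1 (0.954), and Thbs1 had Tpst2 (0.961) and Twf1 (0.940). Spp1 and Ctgf had no neighbour as close: the highest were Pi16 for Spp1 (0.9003) and Aox1 for Ctgf (0.867).

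The promoters were set beside these values, taken from RefSeq (GRCr8) as the 250 bases before and 50 after the start of each gene, for 7 of the 9 genes. They were searched on both strands for GGAATG, the core bound by TEAD factors, for TGANTCA, the AP-1 site, and for the CArG box. GGAATG or its reverse complement CATTCC was found 3 times in Ctgf (listed there as Ccn2) and once each in Cyr61 (Ccn1), Thbs1 and Sparc, and not in Postn, Tnc or Spp1. It was present in 14.2% of the 33469 promoters of this length, the AP-1 site in 7.33% and the CArG box in 1.64%, and the last 2 were in none of the 7. The 250 bases before the start are shown for 3 members, with the GGAATG matches in capitals. They are Ctgf, whose groups all overlapped, Sparc, the only one called for the difference between D21 and NP rats, and Postn. Postn had the largest fitted differences between whole and depleted cervix.
Ctgf, chr1:22624615-22624864 of GRCr8, minus strand: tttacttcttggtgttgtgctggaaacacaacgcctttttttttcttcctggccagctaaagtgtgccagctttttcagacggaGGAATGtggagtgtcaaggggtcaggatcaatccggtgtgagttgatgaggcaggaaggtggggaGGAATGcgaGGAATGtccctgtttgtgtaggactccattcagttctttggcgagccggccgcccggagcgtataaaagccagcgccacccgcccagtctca
Sparc, chr10:40038817-40039066 of GRCr8, minus strand: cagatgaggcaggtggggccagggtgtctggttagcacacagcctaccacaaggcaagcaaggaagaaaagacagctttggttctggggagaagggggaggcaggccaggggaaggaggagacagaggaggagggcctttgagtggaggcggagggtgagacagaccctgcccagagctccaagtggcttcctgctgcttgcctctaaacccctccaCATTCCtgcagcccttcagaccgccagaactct
Postn, chr2:140677811-140678060 of GRCr8, plus strand: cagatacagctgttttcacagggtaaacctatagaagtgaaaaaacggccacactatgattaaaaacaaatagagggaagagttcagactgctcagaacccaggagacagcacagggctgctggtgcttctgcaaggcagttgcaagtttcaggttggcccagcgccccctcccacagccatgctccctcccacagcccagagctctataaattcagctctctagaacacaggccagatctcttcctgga
The match nearest the start lies 86 bases before it in Ctgf, 27 in Sparc and 41 in Thbs1. Ctgf and Sparc both hold the core. A match is no evidence of binding in these samples, and its part in the members' values was not tested.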

How the data were processed

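RNA of the cervix of 12 rats was read on 12 Agilent arrays in 1 colour. The deposited files hold spot intensity values read by Agilent Feature Extraction 9.5.3.1, already background-subtracted, and a table in which the authors gave the ratio of each probe to the 75th percentile of its array. The probe positions are those of rn4, per the file headers. Processed intensity was used, 294 to 648 outlier spots per array were left out, spots of 1 probe were averaged, and the log2 of the value over the array's 75th percentile was taken. For genes with several probes the brightest on average was used. Of 30367 probes, 17328 (57.1%) were matched to a RefSeq gene, and the file's name was kept otherwise. Tests covered the genes that passed the scanner's well-above-background mark in all 3 rats of at least 1 of the groups compared.

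All 12 arrays were fitted by group in limma 3.58.1 (R 4.3.3), and p-values were adjusted by Benjamini-Hochberg over all genes tested, with calls at 0.05. The fit was tested on simulated data. Replicates were separate rats; an exact permutation test of 3 rats against 3 cannot go below p = 0.1, so none was used. Precision is limited by the number of arrays. There were 4 slides and 3 scan days: D21 depleted rat 1 was alone on its slide and scan day, and all whole cervix was scanned on day 3.

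The members and the gene lists were chosen with earlier results of these data known. Genes named are the members, up to 4 called genes of a list with the largest change per comparison, and the 3 genes most like each member, of which unnamed sequences were left out. The study's Welch test and threshold, background correction, normalization, filters, probe choice, array weights, slide, scan day, the authors' ratio values and leaving out each rat were tried as alternatives. One called gene of a list is not reported here.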

Additional observations from a re-analysis of the deposited data

Results flagged for a closer look

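The effect of depletion on Sparc differed between D21 and NP rats by -2.75 on the log2 scale (limma interaction, adjusted p = 0.0377): Sparc stood 0.31 higher in whole than depleted cervix at D21 and 3.06 higher when not pregnant. On scan day 3 alone, with 1 depleted rat in each state, the Sparc difference was 1.30 at D21 and 2.45 in NP rats. The summed fibroblast markers were also 333 to 498 in D21 and 20.02 to 65.0 in NP depleted cervix, and their part in the result was not tested.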

How the results depend on the processing

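Over the settings other than leaving out a rat, 498 log2 differences of members kept their direction and side of the threshold, 20 gained and 31 lost a call, and 16 changed sign. None of the sign changes was in a called difference, and the cause of none was tested. No paired analysis was possible because the groups compared share no rat numbers, and the shared numbers 5, 6 and 7 are different animals. In the order D21 against NP whole, D21 against NP depleted, whole against depleted at D21, the same in NP rats, and the difference between the last 2, members called were 0, 3, 2, 4 and 1. The study's threshold (in limma) gave 1 and 6 in the first pair. The methods' t-test called 0 in D21 against NP depleted, 1 at D21 and 2 in NP rats at that threshold, and 0, 0 and 1 after Benjamini-Hochberg adjustment. In D21 against NP depleted cervix, limma on the arrays alone gave 1. Normexp gave 1 there, 1 at D21 and 0 for the difference, no filter 1 at D21 and 0 for the difference, and array weights 2, 1, 5 and 3 in all but NP rats. Slide as a block gave 5 in D21 against NP depleted, 1 at D21 and 0 for the difference, and scan day 1, 5, 1 and 0 in all but NP rats. In NP rats slide, scan day and array weights each gave 5, and the filter on every array 3. Leaving out 1 rat gave 0 to 2, 2 to 5, 1 to 6, 4 to 4 and 0 to 3. The t-test and the arrays alone were not run for the last.

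Sign changes were as follows. Normexp gave 0.0583 for Ctgf and 0.45 for Thbs1 in D21 against NP depleted and 0.80 for Spp1 in the difference. Quantile normalization gave 0.33 for Sparc in D21 against NP whole and -0.18 for Thbs1 in NP rats. Array weights gave 0.14 for Ctgf in depleted cervix and 2.16 for Spp1 in the difference. With slide, Sparc in whole cervix was 0.0251, Ctgf in depleted 0.14 and in NP rats 0.61, and Thbs1 was -0.80 at D21 and -1.84 in NP rats. With scan day, Ctgf was 0.14 in depleted and 0.50 in NP rats, and Thbs1 -1.48 in NP rats. The dimmer Fn1 probe gave 1.35 in the difference. Leaving out 1 rat gave, in whole cervix, -0.17 to 0.0508 for Sparc and -0.98 to 0.28 for Thbs2. It gave -0.43 to 0.39 for Ctgf in depleted cervix and -0.19 to 0.71 for Sparc at D21. In NP rats it gave -0.51 to 0.41 for Ctgf, -0.29 to 0.61 for Thbs1 and -1.92 to 0.25 for Tnc. In the difference it gave -0.0361 to 0.88 for Ctgf and -1.99 to 1.32 for Spp1.

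Over all genes, D21 against NP whole cervix had 554 higher and 272 lower calls, against 77 and 11 with normexp, 31 and 32 with slide, 129 and 42 with no filter and 2366 and 2806 with array weights, and 66 and 29 without D21 whole rat 7. D21 against NP depleted cervix had 485 and 130, against 169 and 26 on the arrays alone 180 and 24 with array weights, and 1603 and 1426 without D21 depleted rat 4. Whole against depleted at D21 had 1693 and 1500, against 45 and 9 with slide and 221 and 99 with normexp. The methods' t-test after adjustment called 0 in both comparisons of D21 with NP, where 3667 and 1066 genes had an unadjusted p below 0.05. A percentile over probes detected on every array moved the median of all genes by -0.16 in depleted cervix and 0.19 at D21. Spp1 in NP depleted, Thbs1 in several groups and several listed genes in depleted cervix were not well above background, which limits their differences.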
